A study of Mus musculus with 3 samples.

Results

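*Ffar2* and *Ffar3*, the genes of the short-chain fatty acid receptors FFAR2 and FFAR3, were followed through single myenteric neurons of the small intestine. They are 2 of the 33353 genes listed. A cell with at least 1 unique molecular identifier (UMI, 1 per captured RNA molecule) of a gene was counted as positive for it, and 235 of the 2060 neurons were positive for *Ffar2*, *Ffar3* or both. The 2 genes were chosen by their detection in these same cells, that is by their shares and UMIs per library, by how often they were found together and by the genes raised beside them. All of these values are descriptions, and no test was run on them. Intervals around them give the counting error.

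The cells came from 3 *Ednrb*-/- mice (Ednrb-KO) at P14, a model of Hirschsprung disease, with 1 library per mouse and no control group. All mice carried Wnt1-Cre and a Cre-dependent tdTomato reporter, which marks cells of neural crest origin, and tdTomato+ cells were sorted from the longitudinal muscle with the myenteric plexus (LMMP). The labels give the strain as C57BL/6, while the study's methods list the *Ednrb* allele and the reporter on mixed backgrounds of B6 with another strain. Genotype, age and reporter are shared by all samples, so nothing below compares knockout with wild-type animals. The cells analysed are those the authors kept as neurons, and other sorted cells were not analysed here.

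Short-chain fatty acids, chiefly acetate, propionate and butyrate, are made by gut bacteria from fiber. FFAR3 couples to inhibitory G proteins of the Gi/o class, and FFAR2 couples to Gi/o and Gq. FFAR2 is best known from neutrophils, enteroendocrine cells and adipocytes, and FFAR3 from enteroendocrine cells and from sympathetic and enteric neurons.

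Both genes lie on the minus strand of chromosome 7 (GRCm38, GENCODE M21). *Ffar2* spans chr7:30818348-30823775 and *Ffar3* spans chr7:30854330-30856178, with their starts 32403 bases apart. *Ffar1*, the receptor of longer fatty acids, begins beyond *Ffar3* at chr7:30857390-30861564. On the other side lie *Krtdap* (chr7:30787896-30791097), *Dmkn* (chr7:30763756-30781063) and *Sbsn* (chr7:30751471-30756134), which code for secreted proteins of the epidermis and are on the plus strand. The exons of *Ffar2* and *Ffar3* share 0 bases, and the longest run of identical bases between their first listed transcripts (2301 and 1625 bases) is 11. *Krtdap* ends 27250 bases from the end of *Ffar2*, and their exons share 0 bases.

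The promoters of the receptors and of the neighbours whose RNA was found in the same cells are shown, from 250 bases before to 50 after the start (RefSeq, GRCm38.p6, on the strand of the gene). Capitals mark the palindromic motif TGACGTCA, the cAMP response element, and the motif CACGTG, an E-box. *Ffar2* is at chr7:30823726-30824025 (1 of 4 starts in the table), *Ffar3* at chr7:30856129-30856428, *Krtdap* at chr7:30787655-30787954 and *Dmkn* at chr7:30763506-30763805 (1 of 3 starts).
Ffar2: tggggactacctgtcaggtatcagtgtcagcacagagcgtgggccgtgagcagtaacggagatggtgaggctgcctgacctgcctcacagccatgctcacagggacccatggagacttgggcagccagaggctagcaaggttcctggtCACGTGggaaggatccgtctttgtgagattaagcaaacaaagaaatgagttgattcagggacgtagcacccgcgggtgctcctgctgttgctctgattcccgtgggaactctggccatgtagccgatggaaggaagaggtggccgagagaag
Ffar3: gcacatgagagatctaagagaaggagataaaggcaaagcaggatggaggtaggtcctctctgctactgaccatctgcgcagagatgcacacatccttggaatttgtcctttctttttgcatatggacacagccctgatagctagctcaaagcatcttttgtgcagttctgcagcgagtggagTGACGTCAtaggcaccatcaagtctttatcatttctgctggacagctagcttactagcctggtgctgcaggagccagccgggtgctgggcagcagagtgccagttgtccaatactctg
Krtdap: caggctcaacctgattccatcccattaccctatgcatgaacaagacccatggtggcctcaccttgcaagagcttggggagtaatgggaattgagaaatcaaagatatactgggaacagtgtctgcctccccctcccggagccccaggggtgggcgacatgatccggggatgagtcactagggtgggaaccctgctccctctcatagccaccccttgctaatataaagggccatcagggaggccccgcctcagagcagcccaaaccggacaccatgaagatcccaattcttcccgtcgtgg
Dmkn: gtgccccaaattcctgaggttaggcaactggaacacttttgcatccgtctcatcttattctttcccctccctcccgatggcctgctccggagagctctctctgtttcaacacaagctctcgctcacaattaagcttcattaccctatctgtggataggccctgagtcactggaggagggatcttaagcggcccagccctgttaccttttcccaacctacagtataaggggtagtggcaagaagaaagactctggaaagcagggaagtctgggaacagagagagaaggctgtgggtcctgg

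The *Ffar3* promoter held TGACGTCA from position -68 relative to the start, and 1.79% of the 32851 mouse promoters in the table hold it on either strand. The *Ffar2* promoter held CACGTG from position -102, as do 7.15% of promoters anywhere in the window. *Krtdap* has TATAAA at position -30 (13.6% of promoters). The motif CCAAT occurs in *Ffar3* and *Krtdap*, both times after the start, and in 37.4% of promoters. The motif TGACAG occurs in *Ffar2* and in 19.2% of promoters. The E-box CAGCTG (16.3% of promoters), the homeodomain core TAATTA (5.29%), the GC box GGGCGG (35.7%), the SOX core ATTGTT (10.7%) and the GATA motif GATAAG (7.44%) were not among the letters of these 4 windows. *Dmkn* held none of the 10 motifs. Both strands were searched, none of the 10 lies within another, and the motifs were picked after the sequences had been seen. A match is a stretch of letters and no binding was measured.

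Depth differed between the libraries. The median cell of mouse 1 had 3734.5 UMIs (354 cells), that of mouse 2 had 9599.5 (1050 cells) and that of mouse 3 had 9578.5 (656 cells). The library of mouse 1 stood apart: 9 of the 13 clusters described below held 1 of its cells or none, and 230 of its cells formed a cluster of their own. That cluster was led by *Hand2os1*, *Ccn1*, *Ccn2*, *Rian* and *Gas5*. Whether all libraries were counted with the same gene annotation was not tested. Results are therefore also given without mouse 1 or per mouse. Cell barcodes found in more than 1 library numbered 2, and none of their 4 cells was positive for either receptor. The neuronal markers *Elavl4* and *Snap25* were found in 96.6% and 95.3% of the receptor-positive cells.

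*Ffar3* was found in more neurons than *Ffar2* in every mouse. It was detected in 12 of 354, 85 of 1050 and 77 of 656 cells of mice 1, 2 and 3, or 3.39%, 8.10% and 11.7%. The mean was 7.74% ± 4.19 (SD, n = 3 mice), and 9.92% without mouse 1. *Ffar2* was detected in 1, 46 and 32 cells of the same mice, or 0.282%, 4.38% and 4.88%. Its mean was 3.18% ± 2.52 (SD, n = 3 mice), and 4.63% without mouse 1. Mouse 1 was lowest for both genes, and mice 2 and 3 lay closer to each other for *Ffar2* than for *Ffar3*.

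Pooled over mice, 174 of 2060 cells held *Ffar3* (8.45%, 95% exact binomial interval 7.28 to 9.73) and 79 held *Ffar2* (3.83%, 3.05 to 4.76). These and all further intervals cover counting error only. Either gene was found in 3.67%, 11.6% and 15.2% of the cells of mice 1, 2 and 3, and both in 0, 9 and 9 cells. Of the 20215 genes detected, 9169 were in more cells than *Ffar3* and 11191 in more than *Ffar2*.

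As levels, *Ffar3* reached 0.0786, 0.116 and 0.168 UMIs per 10000 UMIs in mice 1, 2 and 3, from 12, 120 and 108 UMIs. *Ffar2* reached 0.00655, 0.0502 and 0.0655, from 1, 52 and 42 UMIs. Of the 335 UMIs of the pair, 28.4% were of *Ffar2* (exact binomial interval 23.6 to 33.5), with 30.2% in mouse 2 and 28.0% in mouse 3. These UMIs tag the 3' end of an RNA and were not divided by transcript length.

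Both receptors were detected near the limit of the method. A single UMI was all that was found in 138 of the 174 *Ffar3*-positive cells (79.3%) and in 66 of the 79 *Ffar2*-positive cells (83.5%). The highest number in a cell was 9 for *Ffar3*, in mouse 3, and 4 for *Ffar2*, in the same mouse. All 13 positive cells of mouse 1 had 1 UMI. Positive cells were deeper than the others: median UMIs were 4256 against 3688 in mouse 1, 12469.5 against 9199.5 in mouse 2 and 11974.5 against 9121 in mouse 3.

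Cells were then thinned at random to 3000 UMIs each, and the 78, 55 and 45 shallower cells of mice 1, 2 and 3 were dropped. *Ffar3* was found in 2.90%, 3.62% and 5.07% of the remaining cells and *Ffar2* in 0.362%, 1.11% and 1.96%. The mice kept their order, and the gap between mouse 1 and mouse 2 was smaller for *Ffar3* than without thinning. The share of cells with the RNA thus moves with depth. A cell counted as negative may still hold it, and a single UMI may come from free RNA of other cells. RNA of smooth muscle was widespread in these neurons: *Acta2*, smooth muscle actin, was in 78.3% of receptor-positive and 76.1% of other cells. The part of free RNA in the receptors' UMIs was not tested.

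The 2060 neurons formed 13 clusters, numbered from 0, the largest, to 12 (Seurat, 20 principal components, resolution 0.5). *Ffar3* was concentrated in clusters 4 and 8. It was detected in 44 of 94 cells of cluster 8 (46.8%, 36.4 to 57.4) and in 57 of 168 cells of cluster 4 (33.9%, 26.8 to 41.6). The next highest shares were 8.23% in cluster 6, 6.35% in cluster 0 and 5.66% in cluster 1. *Ffar2* was highest in cluster 8, with 25 of 94 cells (26.6%, 18.01 to 36.7), followed by 9.49% in cluster 6 and 5.95% in cluster 4. Clusters were made from the same cells and genes, so these contrasts are descriptions.

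Cluster 8 was led by *Krtdap*, *Calb2*, *Dmkn*, *Plcxd3* and *Hoxa6*, of which *Calb2* codes for the calcium-binding protein calretinin. *Ffar3* itself was the 10th of its leading genes. Cluster 4 was led by *Oprk1*, the kappa opioid receptor, with *Cacna1e*, *Lrp1b*, *Bnc2* and *Chat*, the enzyme that makes acetylcholine. Cluster 6 was led by *Ndufa4l2*, *Cox8b*, *Igfbpl1* and *Phox2a*. Of 10 genes of excitatory neurons, 9 were in 25% or more of the cells of cluster 4, 9 in cluster 8 and 7 in cluster 6. The count does not set cluster 6 apart, as it was 8 in cluster 1 and 7 in cluster 0. Of 10 genes of immature neurons, 9 reached that share in cluster 6, against 3 in cluster 4 and 5 in cluster 8.

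**Figure D1:**
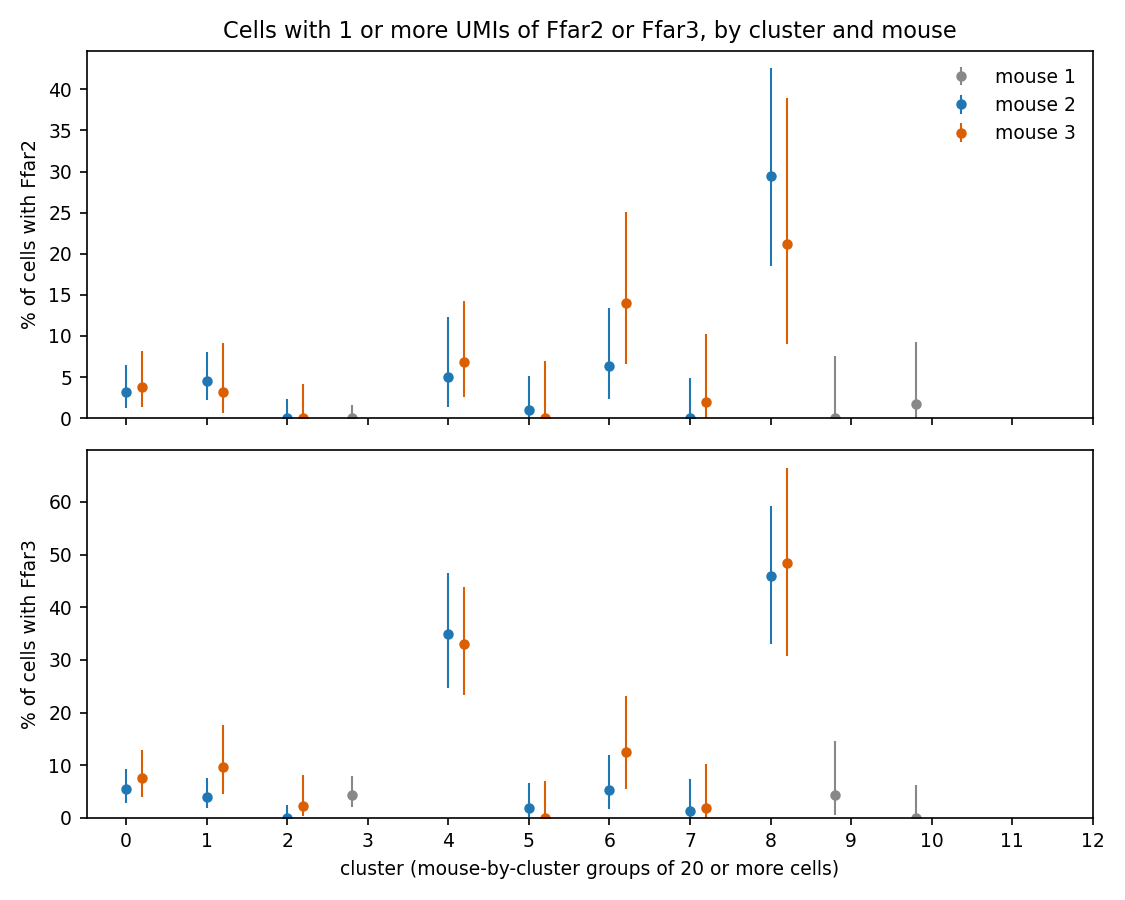
Share of cells with 1 or more UMIs of *Ffar2* (top) and *Ffar3* (bottom) in each cluster, with 1 point per mouse and 95% exact binomial intervals, for mouse-by-cluster groups of 20 or more cells. *Ffar3* was at 45.9% and 48.5% in cluster 8 and at 35.0% and 33.0% in cluster 4 of mice 2 and 3, and *Ffar2* was at 29.5% and 21.2% in cluster 8.

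The plot of shares by cluster and mouse shows close values of mice 2 and 3 in clusters 4 and 8. In cluster 8, *Ffar3* was in 45.9% of the cells of mouse 2 and 48.5% of those of mouse 3. In cluster 4 it was in 35.0% and 33.0%. *Ffar2* was in 29.5% and 21.2% of cluster 8 and in 5.0% and 6.82% of cluster 4. Cluster 6 differed more, with *Ffar2* in 6.38% and 14.1% and *Ffar3* in 5.32% and 12.5% of the cells of mice 2 and 3, although the intervals overlap. No cell of mouse 1 was in clusters 4, 6 or 8. Of its 12 *Ffar3*-positive cells, 10 were in cluster 3 (4.35% of 230 cells), which holds cells of mouse 1 alone, and 2 were in cluster 9.

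Outside these clusters shares were lower. Clusters 0 and 1, the largest, held 33 and 29 of the 235 cells with either receptor (8.73% and 9.12% of their cells) and 13 each of the 79 with *Ffar2* (3.44% and 4.09%). *Ffar2* was in 0 of 240 cells of cluster 2 (a share of up to 1.25% is possible with a count of 0) and in 0 of 230 cells of cluster 3 (up to 1.30%). *Ffar3* was in 0.833% of cluster 2, 1.27% of cluster 5 and 1.59% of cluster 7. The median depth of cluster 2 was 7428 UMIs and that of cluster 5 was 12169, against 4539 in cluster 4. In the 64 cells of cluster 10, which was smooth muscle-like by its markers, *Ffar3* was in 0 cells (up to 4.69%) and *Ffar2* in 1 cell (1.56%, 0.0396 to 8.40), at a median of 3538.5 UMIs. The cells of cluster 10 serve as a comparison of another cell type, and whether they lack the receptors was not tested. The shares of *Ffar3* in clusters 4 and 8 and of *Ffar2* in cluster 8 lay above theirs, and the share of *Ffar2* in clusters 4 and 6 had intervals that overlap that of cluster 10, of which 58 cells came from mouse 1.

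**Figure D2:**
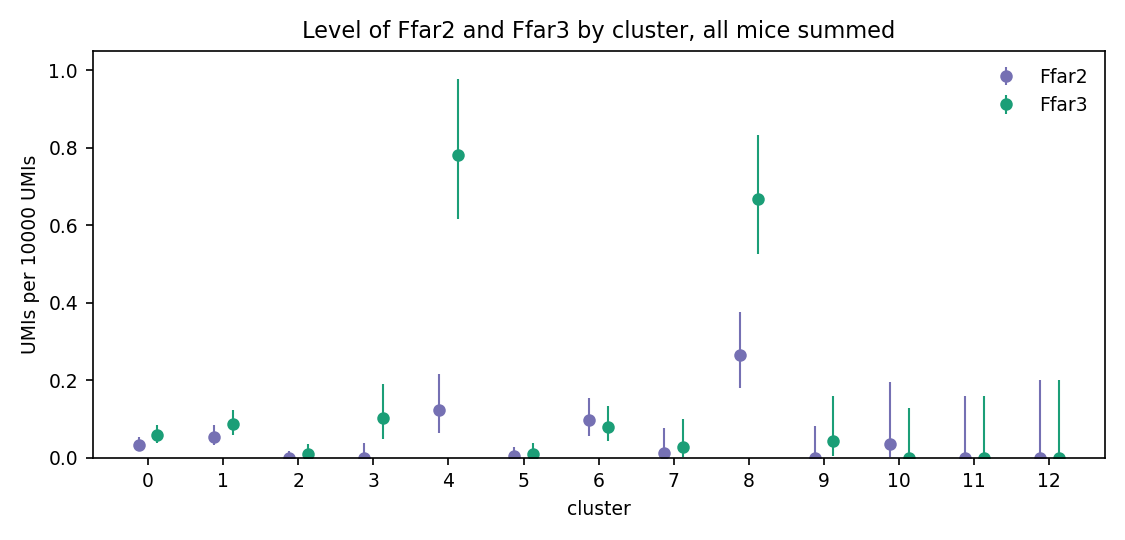
Level of *Ffar2* and *Ffar3* in UMIs per 10000 UMIs in each cluster, summed over mice, with 95% exact Poisson intervals of the UMI number. *Ffar3* was at 0.780 in cluster 4 and 0.667 in cluster 8, and at 0.103 or less elsewhere.

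Levels per 10000 UMIs ordered the clusters differently, as the plot of levels by cluster shows. *Ffar3* was at 0.780 in cluster 4 (exact Poisson interval 0.615 to 0.977) and at 0.667 in cluster 8 (0.527 to 0.832), and the intervals overlap. Median depth was 4539 UMIs in cluster 4 and 13541.5 in cluster 8, so no order of these 2 clusters is read from the shares. Thinned to 3000 UMIs, *Ffar3* was in 20.7% of cluster 4 and 16.7% of cluster 8. The third level was 0.103 in cluster 3 (0.0495 to 0.190), whose interval lies below both. *Ffar3* in mice 2 and 3 was at 0.780 and 0.781 in cluster 4 and at 0.704 and 0.603 in cluster 8.

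*Ffar2* was at 0.265 UMIs per 10000 in cluster 8 (0.180 to 0.376), 0.123 in cluster 4 (0.0637 to 0.215) and 0.0964 in cluster 6 (0.0562 to 0.154). Neighbours in this order overlap, and clusters 8 and 6 do not. Shares put cluster 6 above cluster 4, so no order of these 2 is read. Thinned, *Ffar2* was in 5.56% of cluster 8, 4.44% of cluster 4 and 2.55% of cluster 6. The balance of the genes was read from their UMIs. *Ffar2* made up 12 of the 88 UMIs of the pair in cluster 4 (13.6%, 7.25 to 22.6), 31 of 109 in cluster 8 (28.4%, 20.2 to 37.9) and 17 of 31 in cluster 6 (54.8%, 36.0 to 72.7). In mouse 2 these shares were 9.76%, 28.8% and 58.3%, and in mouse 3 they were 17.0%, 27.8% and 52.6%. With the mice summed, the intervals of clusters 4 and 6 are apart, while that of cluster 8 overlaps both, so no order of the 3 is read. Clusters 4 and 6 are also apart in mouse 2 (2.72 to 23.1 and 27.7 to 84.8). In mouse 3 they overlap (7.65 to 30.8 and 28.9 to 75.6).

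Of the 36 cells with 2 or more UMIs of *Ffar3*, 18 were in cluster 8 and 12 in cluster 4. Of the 13 cells with 2 or more UMIs of *Ffar2*, 5 were in cluster 8, 3 in cluster 1, 2 in each of clusters 4 and 6, and 1 in cluster 0. Clusters 4 and 8 held 262 of the 2060 cells and 125 of the 235 cells with either receptor. In these clusters 50.4% and 44.6% of the cells of mice 2 and 3 had either, against 5.61% and 8.60% in all other clusters.

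Both receptors were found together in 18 cells, 9 of mouse 2 and 9 of mouse 3. If the genes were independent within each mouse, 7.51 such cells would be expected, and the ratio of observed to expected was 2.40 (exact Poisson interval 1.42 to 3.79). It was 2.42 in mouse 2 (1.11 to 4.59) and 2.40 in mouse 3 (1.10 to 4.55). Deep cells hold more of every gene. With the depth of each cell in the expectation, 9.10 cells were expected and the ratio was 1.98 (1.17 to 3.13). In the single mice it was 2.02 (0.922 to 3.83) and 1.96 (0.895 to 3.72).

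With cluster also in the expectation, 20.1 cells were expected and the ratio was 0.894 (0.530 to 1.41). In the single mice it lay on either side of 1, at 0.754 in mouse 2 (0.345 to 1.43) and 1.10 in mouse 3 (0.502 to 2.08). Over all mice, the observed number was above that expected from mouse and depth, and with cluster as well the interval holds 1. Of the 18 cells, 8 were in cluster 8, 4 in cluster 0, 3 in cluster 4, 2 in cluster 1 and 1 in cluster 6. Within cluster 8, which held the most cells with both, 11.7 were expected from mouse alone and the ratio was 0.686 (0.296 to 1.35). In cluster 0 it was 4.77 (1.30 to 12.2), from 0.839 expected cells. The interval of cluster 0 rests on 4 cells, and its part in the whole was not tested.

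Cells with either receptor were set against cells with neither within each mouse, for all genes. A gene was called raised or lowered when its mean level differed 2-fold or more in each mouse with at least 20 receptor-positive cells, which were mice 2 (122 cells) and 3 (100 cells). Mouse 1, with 13 such cells, is given as values. Among 9458 genes with a mean of at least 0.1 UMIs per 10000, the receptors left out, 50 were raised (0.529%) and 41 were lowered (0.433%). The median gene moved by 0.003 in mouse 2 and by -0.01 in mouse 3 on the log2 scale. Fold changes are log2 of level plus 0.1 UMIs per 10000, which makes those of low genes smaller. With 0.5 in place of 0.1, 11 genes were raised and 6 were lowered. The groups of cells were made from the receptors' own UMIs, so the calls carry no p.

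The genes raised most were *Oprk1*, *Krtdap*, *Pi15*, *Dmkn* and *Tac1*. *Oprk1* was at 3.72 and 4.06 UMIs per 10000 in positive cells of mice 2 and 3 and at 0.733 and 0.856 in the others, log2 fold changes of 2.20 and 2.12. In mouse 1 it was at 1.08 and 0.351, in the same direction. *Tac1*, the gene of substance P, was at 11.3 and 7.34 UMIs per 10000 in positive cells and at 2.26 and 2.52 in the others (log2 fold changes 2.27 and 1.505). It was also higher in positive cells of mouse 1, at 4.31 against 2.60. *Pi15*, a secreted protease inhibitor, had log2 fold changes of 1.88, 1.82 and 2.23 in mice 1, 2 and 3.

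**Figure D3:**
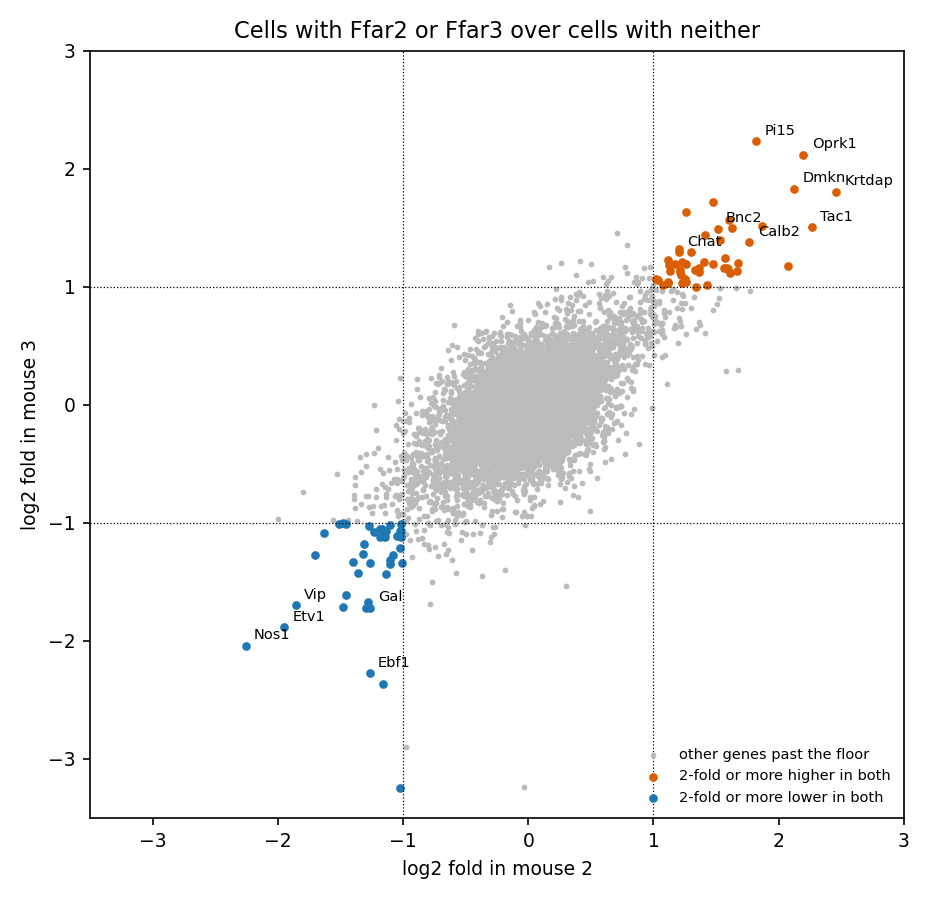
Log2 fold change of each of the 9458 genes past the floor in cells with *Ffar2* or *Ffar3* over cells with neither, mouse 2 on the x axis and mouse 3 on the y axis. Orange marks the 50 genes raised and blue the 41 lowered 2-fold or more in both mice, and dotted lines mark 2-fold.

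Others of the 25 genes raised most had smaller changes. *Cacna1e*, a voltage-gated calcium channel, changed by 1.57 and 1.24 on the log2 scale in mice 2 and 3. *Kcnip4*, a subunit of potassium channels, changed by 1.53 and 1.40, and *Grik1*, a kainate receptor of glutamate, by 1.59 and 1.16. *Htr2b*, a serotonin receptor, changed by 1.60 and 1.56, but in mouse 1 it was lower in positive cells, at 0.104 against 0.256 UMIs per 10000. *Ptprt*, *Slit1*, *Lrp1b* and *Tmem132c* were between 1.20 and 1.71 in both mice. The splicing regulator *Rbfox1* was at 1.86 and 1.52, and the transcription factors *Bnc2* at 1.51 and 1.49 and *Casz1* at 1.60 and 1.15. *Plcxd3*, *Calb2*, *Folr1*, *Vldlr*, *Cpne5*, *Chgb*, *Tm4sf4* and *Pld5* made up the rest of the 25 highest, with *Sst*. With cells thinned to 3000 UMIs, *Calb2* (1.26 and 0.80), *Casz1* (0.90 in mouse 2), *Tmem132c*, *Folr1*, *Cpne5*, *Tm4sf4*, *Krtdap* and *Sst* were no longer 2-fold higher in both mice. In mouse 1, from its 13 positive cells, 18 of the 25 were above 0 and 7 below. Among 9414 genes, a set other than the 9458 above, 42.1% were above 0 in mouse 1.

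*Sst*, the gene of somatostatin, was raised by level and not by share of cells. It was in 14 of 122 positive cells of mouse 2 (11.5%) against 9.81% of the others, and in 6 of 100 positive cells of mouse 3 against 11.9%. Of its 590 UMIs in the positive cells of mouse 2, 577 came from 3 cells, and of its 142 in mouse 3, 139 came from 3 cells. Its direction turned when positive cells needed 2 UMIs (log2 fold change -0.11) and when cells were thinned (-0.16).

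The genes lowered most included *Nos1*, *Etv1* and *Vip*. *Nos1*, neuronal nitric oxide synthase, was at 1.23 and 1.16 UMIs per 10000 in positive cells of mice 2 and 3 and at 6.26 and 5.08 in the others, log2 fold changes of -2.26 and -2.04. In mouse 1 it was at 0.546 against 4.30, in the same direction. *Etv1*, a transcription factor, changed by -1.95 and -1.88, and *Vip*, a peptide that relaxes gut muscle, by -1.86 and -1.70. *Ebf1*, *Dach1* and *Gfra1*, the latter a co-receptor of GDNF, were lowered as well, as were the peptide genes *Gal* (-1.27 and -1.72) and *Grp* (-1.16 and -2.37). With cells thinned to 3000 UMIs, *Ebf1* (-0.73 and -1.43), *Gal* (-3.22 and -0.65), *Grp* (-0.81 and -3.34), *Enpp1* and *C1ql1* were no longer 2-fold lower in both mice. *Enpp1*, *Aldh1a3*, *Dgkb*, *C1ql1*, *Plpp3* and *Slitrk6* ranged from -1.09 to -1.71. *Hba-a1*, a globin of red blood cells, was lowered with 2 UMIs in 2 of the 235 positive cells and 1189 UMIs in 13 of the others, so it rests on few cells. All 15 genes lowered most were below 0 in mouse 1 as well, as were most genes there.

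Within clusters 4 and 8 the contrast was smaller than over all cells, for which the 25 genes had been picked. Within cluster 4, positive and negative cells (31 and 49 in mouse 2, 33 and 55 in mouse 3) differed 2-fold or more in both mice for 1 of the 25 genes raised most, *Htr2b*, which was chosen for naming here after its values were seen. The share over all genes was 0.455%. The median of the 25 fell to 0.38 and 0.46 on the log2 scale, and 18 of them were above 0 in both mice, as were 2333 of all 9458 genes. Within cluster 8 (40 and 21, 21 and 12 cells) 0 of the 25 were 2-fold higher in both mice, beside 0.508% of all genes, and 8 were above 0 in both, as were 2444 of the 9458 genes. Below 0 in both were 2, and 1 of these, *Sst*, was 2-fold lower (-5.10 and -1.81). Of the 15 genes lowered most, 1 was 2-fold lower in both mice of cluster 4 (*Gfra1*, -2.29 and -1.70, beside 0.899% of all genes) and 0 in cluster 8 (0.444%), where 1, *Etv1*, was 2-fold higher (1.44 and 1.69). Both were likewise named after their values were seen. *Oprk1* changed by 0.54 and 0.75 in cluster 4 and by 0.11 and -0.22 in cluster 8. *Nos1* changed by -0.45 and -0.59 in cluster 4, and by 1.24 and -1.62 in cluster 8, where the mice went opposite ways.

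The genes were then read by lists of transmitter genes, each beside the share of all genes called (0.529% raised and 0.433% lowered). Of the 9 genes of excitatory neurons past the floor, 7 were raised (*Chat*, *Tac1*, *Penk*, *Calb2*, *Bnc2*, *Oprk1* and *Ndufa4l2*) and 0 were lowered. *Slc18a3*, the vesicular transporter of acetylcholine, and *Slc5a7*, the choline transporter, passed 2-fold in mouse 2 and not in mouse 3, with log2 fold changes of 1.77 and 1.51 in mouse 2 and 0.96 and 0.86 in mouse 3. In mouse 1 they were at 1.51 and 0.51. The median of the list was 1.51 and 1.32 in mice 2 and 3. Of the 10 genes of inhibitory neurons, 0 were raised and 5 were lowered (*Nos1*, *Vip*, *Gal*, *Etv1* and *Ass1*), with a median of -1.22 and -1.15. *Calb2* and *Gal* count here although they lost their calls when cells were thinned. Fold changes of *Chat*, *Penk*, *Ndufa4l2* and *Ass1* in thinned cells were not read. *Gch1*, which makes a cofactor of nitric oxide synthase, went the other way in mouse 2, at 1.58, and was at 0.29 in mouse 3. The lists were written with earlier results of these cells known, and the excitatory one holds *Oprk1*, the gene raised most, so they are no independent evidence of a direction.

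**Figure D4:**
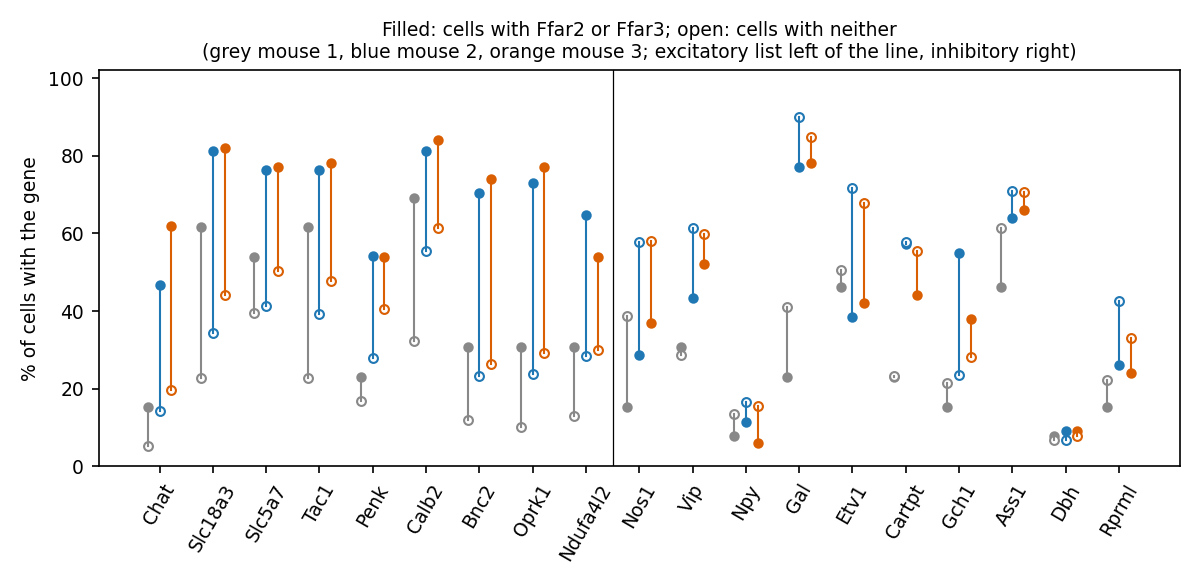
Share of cells with 1 or more UMIs of each gene among cells with *Ffar2* or *Ffar3* (filled) and cells with neither (open), in mice 1 (grey), 2 (blue) and 3 (orange). Excitatory genes lie left of the line and inhibitory genes right of it. *Chat* was higher and *Nos1* lower in the receptor-positive cells of each mouse, of which mouse 1 had 13.

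*Chat* was detected in 15.4%, 46.7% and 62.0% of the receptor-positive cells of mice 1, 2 and 3, a mean of 41.4% ± 23.8 (SD, n = 3 mice), and 54.4% without mouse 1. In the other cells it was in 5.28%, 14.2% and 19.6%. *Nos1* was detected in 15.4%, 28.7% and 37.0% of positive cells, a mean of 27.0% ± 10.9 (SD, n = 3 mice), and 32.8% without mouse 1. In the other cells it was in 38.7%, 57.9% and 57.9%. *Chat* was higher and *Nos1* lower in the positive cells of mice 2 and 3. Mouse 1 went the same way from 13 positive cells, so its direction rests on few cells. There *Chat* was in the 1 cell with *Ffar2* alone and in 1 of the 12 with *Ffar3* alone, and *Nos1* in 0 and 2 of these. Both genes varied widely between mice. At 3000 UMIs per cell *Chat* was in 11.1%, 19.6% and 41.5% of positive and 2.996%, 6.74% and 11.9% of other cells, and *Nos1* in 11.1%, 19.6% and 26.8% against 37.8%, 41.1% and 40.9%, over 9, 46 and 41 positive cells.

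Seen from the transmitter classes, *Ffar3* was in 66 of 277 cells with *Chat* and without *Nos1* (23.8%, 18.9 to 29.3). It was in 31 of 962 cells with *Nos1* and without *Chat* (3.22%, 2.20 to 4.54). Cells with both had 22 of 103 (21.4%, 13.9 to 30.5). *Ffar2* was in 11.9% (8.34 to 16.3), 1.66% (0.954 to 2.69) and 7.77% (3.41 to 14.7) of the same classes, whose median depths were 9676, 9094.5 and 12087 UMIs. In mouse 2 *Ffar3* was in 20.9% of the *Chat* class and 2.82% of the *Nos1* class, and in mouse 3 in 30.1% and 4.65%.

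*Bnc2* and *Etv1*, transcription factor genes of the excitatory and inhibitory lists, gave a like split. *Ffar3* was in 81 of 332 cells with *Bnc2* and without *Etv1* (24.4%, 19.9 to 29.4) and in 21 of 1075 cells with *Etv1* and without *Bnc2* (1.95%, 1.21 to 2.97). *Ffar2* was in 10.8% (7.71 to 14.7) and 1.58% (0.924 to 2.52). Median depths were 9346 and 8521 UMIs. In mice 2 and 3, cells with *Bnc2* and without *Etv1* and cells with *Chat* and without *Nos1* had shares of each receptor with intervals apart from those of the opposite class. In the 235 cells with *Bnc2* and *Etv1* together, *Ffar3* was in 20.4% (15.5 to 26.2) and *Ffar2* in 5.53% (2.98 to 9.27), at a median of 12056 UMIs. Within mice 2 and 3 the *Ffar2* intervals of cells with *Bnc2* and *Etv1*, or with *Chat* and *Nos1*, overlap those of cells with *Etv1* without *Bnc2*, or *Nos1* without *Chat*.

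With the mice pooled, cells with *Ffar2* alone and *Ffar3* alone had close shares of some transmitter genes and apart shares of others. *Chat* was in 54.1% of the 61 cells with *Ffar2* alone and in 51.3% of the 156 cells with *Ffar3* alone. *Nos1* was in 34.4% and 32.1%, and *Calb2* in 82.0% and 80.8%. *Slc5a7* was in 55.7% (42.4 to 68.5) of the cells with *Ffar2* alone and in 82.7% (75.8 to 88.3) of those with *Ffar3* alone, with 48.6% against 86.8% in mouse 2 and 65.2% against 83.8% in mouse 3. *Penk*, the gene of enkephalins, was in 36.1% (24.2 to 49.4) and 56.4% (48.2 to 64.3), and *Oprk1* in 57.4% (44.1 to 70.0) and 75.6% (68.1 to 82.1). For both of these the pooled intervals overlap, and for *Slc5a7* they do not. By mouse, those of *Slc5a7* are apart in mouse 2 (31.9 to 65.6 and 77.1 to 93.5) and overlap in mouse 3 (42.7 to 83.6 and 72.9 to 91.6). *Ret*, the receptor of GDNF, was in 44.3% (31.5 to 57.6) and 68.6% (60.7 to 75.8), with intervals apart, a gap seen in mouse 2 (32.4% and 71.1%) and less in mouse 3 (65.2% and 72.1%). Median depth was 13070 UMIs in the cells with *Ffar2* alone and 11306.5 in those with *Ffar3* alone. The largest number of the former was in cluster 8 (17 of 61), followed by cluster 6 (14), and of the latter in cluster 4 (54 of 156), followed by cluster 8 (36).

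The 18 cells with both had *Slc18a3* and *Oprk1* in 94.4% each, *Calb2* and *Dmkn* in 88.9% each and *Nos1* in 16.7% (3.58 to 41.4).

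Other receptors of fatty acids and microbial metabolites were detected in few cells. None of 10 reached the floor. *Ffar4*, a receptor of long-chain fatty acids, was in 10 of 2060 cells and *Olfr78*, an olfactory receptor that responds to acetate and propionate, in 17, of which 2 and 1 were positive for *Ffar2* or *Ffar3*. *Ffar1*, *Gpr84* and *Olfr558* were each in 2 cells, *Gpr35* in 3, *Hcar2*, the receptor of butyrate and niacin, in 1, *Sucnr1* in 1, and *Hcar1* and *Gpr119* in 0 (up to 0.146%). *Ffar1*, 1211 bases from the start of *Ffar3*, was thus in 2 cells where *Ffar3* was in 174.

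Of 15 genes that carry and use short-chain fatty acids, 9 passed the floor, and 0 were raised and 0 lowered. This is near the share of all genes called (0.529% and 0.433%). They had a median of -0.15 and -0.005 in mice 2 and 3. *Oxct1*, the mitochondrial enzyme that activates ketone bodies, was in 78.7% of positive cells and 56.9% of the others, with log2 fold changes of 0.75 and 0.47. *Acss2*, which makes acetyl-CoA from acetate, was in 30.2% and 16.6% (0.28 and 0.59). *Slc16a1*, a carrier of monocarboxylates, was in 11.5% and 12.8% (-0.30 and -0.10). The sodium-coupled carriers *Slc5a8* and *Slc5a12* were in 0 cells.

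Of 20 genes of G proteins and their effectors, 18 passed the floor, and 0 were raised and 0 lowered, which is near the share of all genes (0.529% and 0.433%). The median was 0.03 and -0.11. Among the subunits of Gi/o, *Gnao1* was in 82.6% of positive cells, *Gnai2* in 87.7% and *Gnai1* in 49.8%. *Gnaq* and *Gna11*, of the Gq class, were in 78.7% and 65.1%. *Plcb1*, a phospholipase that Gq activates, came nearest to a call, with -0.58 and -0.98. *Plcb4* was at 0.13 and 0.31. *Cacna1b*, the N-type calcium channel that Gi/o subunits inhibit, was in 62.1% of positive and 42.0% of other cells, with log2 fold changes of 0.29 and 0.04.

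Markers of cell types known for these receptors were looked for in the same cells, and their calls stand beside 0.529% of all genes raised and 0.433% lowered. Of 10 enteroendocrine genes 2 passed the floor and 1, *Chgb*, was raised (1.56 and 1.16). *Chgb* codes for a protein of secretory granules that neurons make as well. *Gcg*, *Neurod1* and *Gip* were in 0 cells of either kind, and *Nts* was in 0 positive cells and 2 cells in all. *Chga* was in 71.9% of positive and 53.5% of other cells, and *Sct* in 1.70% and 1.92%. *Tph1* was in 2 positive cells, and *Pyy* and *Insl5* in 1 each. Of 10 immune genes none passed the floor, and *Itgam*, *S100a8* and *S100a9* were in 0 positive cells. *C1qa* was in 5.96% of positive and 3.56% of other cells, *Cd74* in 1.70% and 0.93%, and *Cd52* in 1.28% and 0.33%. *Ptprc* was in 0.85% and 0.44%, *Lyz2* in 3.83% and 3.84%, *Csf1r* in 1.28% and 2.19%, and *Cd68* in 0.85% and 1.86%. The summed level of the immune list was 1.69 UMIs per 10000 in positive and 0.397 in other cells of mouse 1, 0.113 and 0.145 in mouse 2, and 0.126 and 0.202 in mouse 3. Of 10 epithelial and keratinocyte genes 2 passed the floor and 1 was raised, *Dmkn*. *Epcam*, *Krt8*, *Krt20*, *Vil1*, *Cdh1*, *Krt5* and *Krt14* were in 0 positive cells, *Krt18* was in 1 and *Sbsn* in 68.

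The summed levels of glial and smooth muscle genes were lower in the positive cells of mice 2 and 3, with none of these genes called. The summed level of 10 glial genes was 18.7 and 16.5 UMIs per 10000 in positive cells against 32.7 and 25.04 in the others. Of these sums *Apoe*, which other cells make as well, gave 9.73 and 7.44 against 18.6 and 12.5. In mouse 1 the sum was 25.7 against 22.4. There *Apoe* was at 14.8 against 7.69, and the other 9 genes were lower in positive cells. The 10 smooth muscle genes summed to 9.99 and 8.29 against 20.5 and 14.04, and to 43.4 against 78.1 in mouse 1. None of the 8 and 9 genes of these lists past the floor was called. Of all genes 0.529% were raised and 0.433% lowered, so a list of this size with 0 calls is near the background. Their part in the contrasts was not tested. Of 10 pan-neuronal genes 0 were raised or lowered, and *Snap25*, of the synaptic release machinery, came nearest at 1.22 and 0.87. Of 10 genes of immature neurons 0 of the 8 past the floor were called, with a median of -0.49 and -0.44. Of 12 genes of sensory neurons and interneurons 6 passed the floor, with *Sst* raised and *Grp* lowered. Of 6 fibroblast genes 3 passed, and 1, the collagen gene *Col3a1*, was lowered (-1.19 and -1.06). No endothelial or interstitial cell gene passed the floor.

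*Dmkn* and *Krtdap*, the neighbours of *Ffar2* on chromosome 7, were found in the same neurons as the receptors. *Dmkn* was in 176 of the 235 cells with either receptor (74.9%) and in 25.4% of the others. By mouse it was in 15.4%, 75.4% and 82.0% of positive and in 13.8%, 26.4% and 30.9% of other cells. Its log2 fold changes in mice 2 and 3 were 2.12 and 1.83. *Krtdap* was in 62 of 235 cells (26.4%) against 5.75%, with log2 fold changes of 2.46 and 1.81. *Sbsn*, further away, was in 28.9% and 16.4% and was not called (0.22 and 0.51). With cells thinned to 3000 UMIs, *Dmkn* kept its call (1.58 and 1.27) and *Krtdap* lost it, at 2.27 in mouse 2 and 0.60 in mouse 3, where it was in 4.88% of positive and 3.86% of other cells. In mouse 1 *Krtdap* was in 2 cells in all, none of them positive for a receptor, so the pairing rests on mice 2 and 3.

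**Figure D5:**
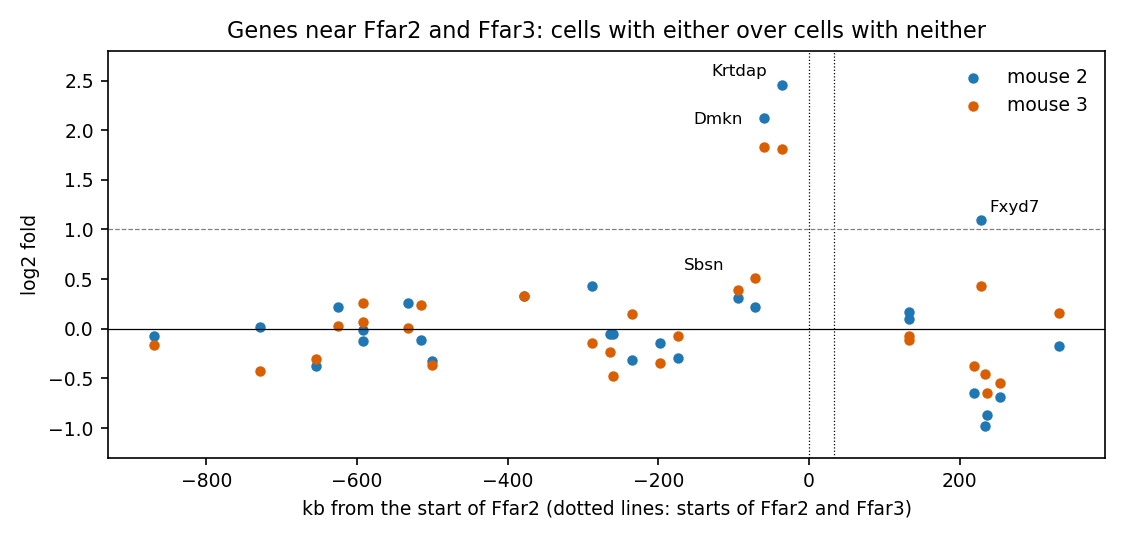
Log2 fold change in cells with *Ffar2* or *Ffar3* over cells with neither, by distance of a gene's start from that of *Ffar2* in kb. Shown are the 28 genes past the floor within 1000000 bases of the receptors, which are left out, in mice 2 (blue) and 3 (orange). *Krtdap* and *Dmkn* lie above the dashed 2-fold line in both mice, and the median of the 28 was -0.02.

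The plot of fold change by distance covers 1000000 bases to each side. The window held 95 listed genes, with the receptors counted in. Leaving the receptors out, 28 passed the floor and 2 were raised, *Krtdap* and *Dmkn*, where 0.529% of all genes were. These 2 are among the genes most raised over all cells, which were known when the neighbours were looked at. The median over the 28 was -0.02 on the log2 scale, near that of all genes. *Fxyd7*, named after its value was seen, passed 2-fold in mouse 2 alone (1.09 and 0.43).

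Turned around, *Ffar2* or *Ffar3* was in 27.3% and 32.3% of the *Dmkn*-positive cells of mice 2 and 3 and in 35.1% and 41.2% of their *Krtdap*-positive cells. In cells with *Dmkn* and *Krtdap* together it was in 53.3% and 55.1%, and in cells with neither in 4.14% and 4.44%. Of all 18 cells with both receptors, 16 held *Dmkn*.

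The pairs were set beside what independence gives, as for the receptors. *Krtdap* and either receptor shared 62 cells where 21.7 were expected from mouse (ratio 2.86, 2.19 to 3.66) and 26.1 from mouse and depth (2.38, 1.82 to 3.05). With cluster added, the ratio was 1.35 (1.03 to 1.73). *Dmkn* and either receptor shared 176 cells, with ratios of 2.21 (1.89 to 2.56), 1.89 (1.62 to 2.18) and 1.20 (1.03 to 1.39). By mouse, with cluster added, *Krtdap* had 1.34 (0.929 to 1.88) in mouse 2 and 1.37 (0.908 to 1.97) in mouse 3. *Dmkn* had 1.15 (0.931 to 1.42) in mouse 2 and 1.26 in mouse 3. The printed intervals by mouse reach below what independence gives, and that of *Dmkn* in mouse 3 starts at about that value. *Sbsn* had ratios of 1.49, 1.26 and 1.06 (0.825 to 1.35). *Dmkn* and *Krtdap* shared 110 cells, with ratios of 1.91, 1.62 and 1.23. In each pair the ratio was lower with cluster in the expectation than without. *Krtdap* and *Dmkn* were picked from the same cells, so these ratios are descriptions as well.

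By cluster, *Dmkn* was in 94.7% of cluster 8 and 60.7% of cluster 4, the clusters of *Ffar3*. It was also in 49.5% of cluster 0, where *Ffar3* was in 6.35% of cells, in 41.1% of cluster 6 and in 30.5% of cluster 1. *Krtdap* was in 42.6% of cluster 8 and 19.6% of cluster 6, but in 7.74% of cluster 4, below its 10.4% in cluster 1. *Dmkn* and *Krtdap* are leading genes of cluster 8 and helped to define it. When the receptors and their neighbours were left out of the clustering, 93 of the 94 cells of cluster 8 fell into a cluster of 169 cells, of which 83 (49.1%) held a receptor.

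Lastly, genes were ranked by how closely their levels followed each receptor over 19 mouse-by-cluster groups of 20 or more cells, among 9607 genes. The groups share libraries and depth, and the correlations are descriptions. *Ffar2* was most like *Dmkn* (Pearson's r 0.89), followed by *Plcxd3*, *Mdga1*, *Arc*, *Dlgap2*, *Krtdap* (0.87), *Chat* (0.85) and *Satb1*. *Ffar3* was most like *Aqp1*, a water channel (0.95), followed by *Tmem132c*, *Dmkn* (0.92), *Dlgap2*, *Chat* (0.91), *Rbfox1*, *Oprk1* and *Cpne5*. *Dmkn*, *Dlgap2* and *Chat* were in both lists. Between the receptors r was 0.82, which put *Ffar3* at rank 14 for *Ffar2* and *Ffar2* at rank 44 for *Ffar3*. *Nos1* had r of -0.63 with *Ffar2* and -0.60 with *Ffar3*.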

How the data were processed

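RNA of single tdTomato+ cells from 3 *Ednrb*-/- mice was sequenced (10x Chromium). The authors aligned and counted reads with Cell Ranger (mm10, per the submitters' processing notes), filtered cells, merged the mice, removed confounding genes and deposited for each neuron the natural log of 1 plus a gene's UMIs per 10000 of that cell. The Cell Ranger version and the gene annotation are not given in the sources used here. Gene positions are those of GENCODE M21 and may differ from the authors' annotation. Columns outside the sample list numbered 0.

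Whole UMIs were recovered from the values. All 6435281 values above 0 (100%) came out whole within 1e-06. The total of a cell includes genes left out of the table. The precision of a share is given by exact intervals at 95%, and a count of 0 allows up to 3 counts. Libraries held 1526256, 10358118 and 6412495 UMIs.

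The members and all gene lists were chosen with earlier results of these data known. Genes named are *Ffar2*, *Ffar3*, the 25 raised and 15 lowered most, the 8 most alike over groups for each receptor, leading genes of clusters, 5 neighbours on each side, and the lists. Clusters came from Seurat 5.3.0 in R 4.3.3 with 2000 variable genes, 20 principal components and resolution 0.5. Leading genes are ranked by fold over other cells among genes in 25% or more of the cells of a cluster. The only cluster named, smooth muscle-like, was cluster 10, by the mean share of its cells with a marker. This mean was 92.8% for smooth muscle, 24.4% for pan-neuronal and 23.6% for glial markers. All 10 smooth muscle markers were in 25% or more of its cells, a count that sets it less apart, as it was 9 in cluster 0. Scrublet in scanpy 1.11.5 called 10 cells doublets (0.485%), 1 of them with a receptor, which is too few for the caller to have worked. Other steps used Python with numpy 2.4.6, scipy 1.17.1 and pandas 2.3.3. Expected numbers with depth used the probability of detection at the UMIs of each cell. Cells are not replicates and there is 1 condition, so no p-value was computed. Alternatives were 2 UMIs for a positive cell, thinning, filters on cells, floor, pseudocount, clustering settings and each mouse left out.

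On simulated data, cells with either receptor were compared with cells with neither. Of the genes changed 4-fold, 100 of 100 raised and 100 of 100 lowered were called, and 0 of the unchanged among 9482. Changes near the 2-fold cut were not simulated. The rate of false calls among genes with most UMIs in few cells, such as *Sst* and *Hba-a1*, was not tested. For 200 independent pairs of genes, observed over expected cells had a median of 1.12 from mouse and 1.00 from mouse and depth.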

Additional observations from a re-analysis of the deposited data

How the results depend on the processing

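With 2 UMIs for a positive cell, *Ffar2* was in 0.546% of cells, *Ffar3* in 1.43% and either in 1.87% (means over mice). The ratio for both was then 7.14 (from 2 cells), *Chat* was in 71.5% of positive cells (mice 2 and 3, as mouse 1 had none) and 123 genes were lowered. Thinned to 3000 UMIs, the ratio was 2.90 (from 3 cells), and 78 genes were raised and 99 lowered. A floor of 0.5 UMIs per 10000 left 31 raised and 21 lowered, and a pseudocount of 0.5 left 11 and 6. The ratio was 1.98 from mouse and depth, 0.894 with cluster as well and 0.954 with clusters made without the receptors and their neighbours, an alternative chosen after seeing the data. The highest share of either receptor in a cluster, 64.9%, was 37.9% at resolution 0.3, in another cluster that held 1 of the cells of cluster 8, and 49.1% without those genes. *Sst* reversed to -0.11 with 2 UMIs and to -0.16 when thinned. The other fold changes of the 40 genes raised or lowered most, as means over mice, kept their sign in all 6 alternatives run on them (238 of 240 values). When thinned, 17 of the 25 raised and 10 of the 15 lowered were still 2-fold in both mice, and *Folr1* turned to -0.10 in mouse 3.

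With each mouse left out in turn, the ratio ranged from 2.37 to 2.41 and the highest share from 38.6% (without mouse 2) to 66.7% (without mouse 3). Calls then rest on 1 mouse. They rose to 77 raised and 89 lowered without mouse 2, and to 112 and 111 without mouse 3. Leaving out the smooth muscle-like cluster or cells under 1500 genes, using no floor, or clustering with 30 components or at resolutions of 1.0 or 2.0 moved none of the results they were run on beyond the spread between mice or 1.5 times. Leaving out called doublets removed 1 positive cell, so dependence on doublets was not tested. Groups of mice could not be paired by number, because all mice belong to 1 group. Positive and other cells were compared within each mouse, with no test. Most positive cells hold 1 UMI, so shares are limited by depth, and mouse 1, the shallowest, has 13 positive cells.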
